A study of Mus musculus with 4 samples.

Results

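Transcripts of p53 and of 9 genes that p53 is known to activate were measured in SerpinB2-/- and wild type kidney tubular cells. The genes were Trp53, which encodes p53, and Mdm2, Ccng1, Phlda3, Bax, Eda2r, Trp53inp1, Zmat3, Btg2 and Gdf15. They were chosen by gene name, as every non-control probe that the array's design assigns to 1 of these 10 genes, which gave 12 of 39429 probes (10 of 29924 gene names). All 12 were well above background on all 4 arrays. The cells were primary tubular cells from kidneys of male mice aged 8 weeks. There were 2 SerpinB2-/- samples and 2 wild type samples, all with a B6.J strain background. All 4 were grown in a renal growth medium with PMA at 100 ng/ml. PMA is a phorbol ester, a plant-derived activator of protein kinase C. No sample without PMA was analysed here, so the values describe PMA-treated cells only. Neither the deleted stretch of Serpinb2 nor any pooling of animals is given in the labels, and separate animals within a genotype are not stated either. The p-values thus reflect the spread between these samples, which may be technical.

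p53 is a transcription factor held at a low level by Mdm2, an E3 ligase that p53 itself induces. After DNA damage or other stress p53 is stabilised, mostly without a change in its own transcript, and raises genes of growth arrest, apoptosis, RNA decay and feedback. In kidney tubules this response is known from ischaemic and toxic injury and from cell senescence. Several of its targets also answer to other inputs: Gdf15 is a target of the integrated stress response, and Btg2 was first isolated as a gene induced by phorbol ester.

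The 2 probes that passed the test described below are shown because their values carry the differences found. Both 60-base oligos are given 5′ to 3′ as the array files list them. The files give no exon or UTR for them, and no annotation of that build was used here.
Eda2r probe A_66_P122860, mm9, chrX:94534281-94534340, minus strand: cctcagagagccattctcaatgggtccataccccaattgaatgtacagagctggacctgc
Trp53inp1 probe A_55_P1973906, mm9, chr4:11092530-11092589, plus strand: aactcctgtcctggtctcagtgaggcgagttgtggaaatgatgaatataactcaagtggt

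Promoter sequences from RefSeq, assembly GRCm38.p6, were found for 8 of the 10 genes, without Zmat3 and Trp53inp1. The window of 250 bases before to 50 after the start was searched for the p53 consensus half-site, a decamer, and for the phorbol ester element TGANTCA. Each pattern equals its own reverse complement, so 1 search covers both strands, and the 2 patterns did not overlap in these windows. The half-site was present in 4 of the 8 genes, Trp53, Mdm2, Ccng1 and Bax. Counted by window this was 4 of 9, against 8.4% of 32851 windows of all genes. The targets were chosen as genes that p53 is known to activate, so they are not an unselected set. TGANTCA was in none of the 9 windows of these genes and in 7.8% of all windows. No window of these genes held a pair of half-sites with a spacer of up to 13 bases, which 0.0731% of all windows did. A match is a match of letters only. The 250 bases before the start are printed for 3 targets with a half-site, in capitals, and for Eda2r, which had none and of which 1 probe passed the test.
Mdm2 promoter, GRCm38.p6, chr10:117710759-117711008, minus strand: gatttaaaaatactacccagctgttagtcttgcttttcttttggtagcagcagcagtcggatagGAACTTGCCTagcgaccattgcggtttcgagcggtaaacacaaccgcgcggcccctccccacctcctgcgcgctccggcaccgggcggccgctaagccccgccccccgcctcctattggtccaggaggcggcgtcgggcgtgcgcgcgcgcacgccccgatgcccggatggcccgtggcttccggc
Ccng1 promoter, GRCm38.p6, chr11:40755287-40755536, minus strand: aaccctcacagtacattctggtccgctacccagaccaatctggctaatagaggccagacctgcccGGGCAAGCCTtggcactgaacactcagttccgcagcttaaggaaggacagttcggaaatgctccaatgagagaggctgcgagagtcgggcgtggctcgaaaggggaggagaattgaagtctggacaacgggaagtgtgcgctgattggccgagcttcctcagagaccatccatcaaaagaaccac
Bax promoter, GRCm38.p6, chr7:45466899-45467148, minus strand: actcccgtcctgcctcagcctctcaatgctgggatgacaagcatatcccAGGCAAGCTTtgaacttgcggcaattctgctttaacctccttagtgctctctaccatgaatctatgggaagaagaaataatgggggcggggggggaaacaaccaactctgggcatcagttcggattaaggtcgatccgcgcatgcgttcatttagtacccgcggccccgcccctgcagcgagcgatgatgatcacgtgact
Eda2r promoter, GRCm38.p6, chrX:97377210-97377459, minus strand: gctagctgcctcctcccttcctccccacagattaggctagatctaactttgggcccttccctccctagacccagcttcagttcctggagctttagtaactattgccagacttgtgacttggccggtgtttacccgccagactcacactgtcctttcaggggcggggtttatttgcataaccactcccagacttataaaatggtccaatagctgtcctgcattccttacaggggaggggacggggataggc

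Serpinb2 checked the labels. Its probe gave 5.47 and 7.39 signal units on the SerpinB2-/- arrays, where it was not well above background, and 3207 and 3276 units on the wild type arrays. The knockout signal was at least 140-fold lower, set against the lowest signal that counted as well above background. The fitted change without that bound was -8.99 on the log2 scale (limma, Benjamini-Hochberg adjusted p = 0.000568). The array signal at the 75th percentile was 313 to 385 times that of the negative controls on all 4 arrays. The epithelial keratin genes Krt8 and Krt18 and the kidney cadherin Cdh16 were well above background on every array, as was the proximal tubule receptor Lrp2. So were the leukocyte marker Itgam, the endothelial marker Kdr and the fibroblast marker Col1a1, which are among the brightest of their lists. Some other markers of these types were dim. Ptprc, a leukocyte marker, had 59.27 and 52.38 units in SerpinB2-/- cells and 79.07 and 79.97 units in wild type cells. The endothelial marker Tie1 and the fibroblast marker Dcn were well above background on only 1 of the 2 SerpinB2-/- arrays. Other tested proximal tubule markers were dimmer than Lrp2. The brightest of them was Cubn, at 723 and 774 units in SerpinB2-/- cells and 740 and 743 units in wild type cells. The dimmest was Slc22a6, at 30.1 and 34.4 units in SerpinB2-/- cells and 35.3 and 34.3 units in wild type cells. Slc5a2, a proximal tubule marker, had no probe that could be tested. Neither had Umod, Slc12a1, Slc12a3 and Calb1, markers of later segments. All 4 arrays shared a slide, on which each genotype took neighbouring places, so place and genotype cannot be told apart.

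Most of the p53 targets measured here showed no difference between the genotypes that passed the test. Signals are background-subtracted intensities, scaled so that every array has the same 75th percentile. Changes are SerpinB2-/- minus wild type on the log2 scale, and a probe passed at an adjusted p under 0.05 by limma, adjusted over all 24174 tested probes. Of the 12 probes 2 fell, 1 for Eda2r and 1 for Trp53inp1, and 0 rose. Of all tested probes 16.0% passed, 10.2% lower and 5.79% higher, so the share of 16.7% among the 12 probes was near that of the array. At an unadjusted p under 0.05, 6 of the 12 were lower and 0 higher, against 34.7% of all tested probes, 19.9% lower and 14.7% higher. The median change was -0.13 for the 12 probes and -0.01 for all tested probes.

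**Figure D1:**
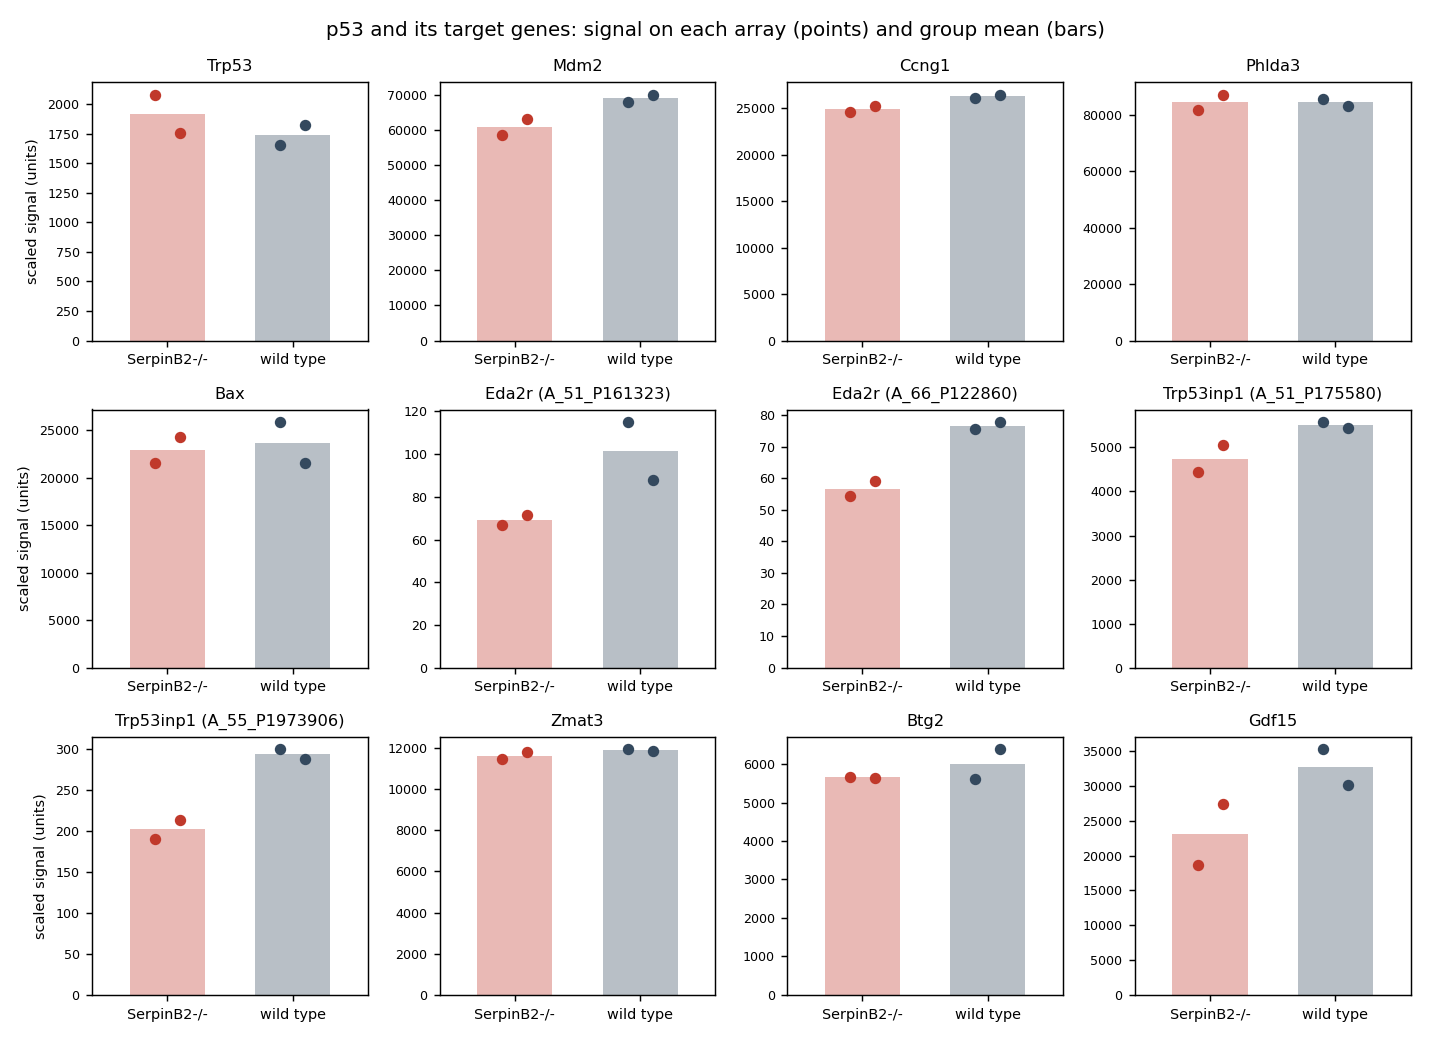
Scaled signal (linear axis from 0, in signal units) of each of the 12 probes on the 2 SerpinB2-/- and the 2 wild type arrays. Points are arrays and bars are group means; the 2 groups lie clearly apart for Eda2r probe A_66_P122860 and Trp53inp1 probe A_55_P1973906, and intermix for Trp53, Phlda3 and Bax.

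Trp53 itself, read by a probe at chr11:69404204-69404263 (mm9), gave 2082 and 1753 units in SerpinB2-/- cells, against 1654 and 1823 units in wild type cells. The groups overlapped, with 1 SerpinB2-/- sample above both wild type samples and the other between them. The change was 0.14 ± 0.11 (log2, SE, n = 2 per group, adjusted p = 0.408 by limma), and its 95% interval covered 0.910-fold to 1.33-fold. A change of the Trp53 transcript beyond that range was thus outside the interval, while a smaller one was not detectable with these 4 arrays.

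Among the feedback genes, Mdm2 (chr10:117126010-117126069) gave 58639 and 63261 units in SerpinB2-/- cells, against 68068 and 70196 units in wild type cells. Both SerpinB2-/- samples lay below both wild type samples, but the change of -0.18 ± 0.07 did not pass (adjusted p = 0.131 by limma). Its interval ran from 0.781-fold to 0.994-fold. Ccng1, which encodes cyclin G1, a protein that directs a phosphatase to Mdm2, was measured at chr11:40562427-40562486. It gave 24579 and 25265 units in SerpinB2-/- cells and 26066 and 26447 units in wild type cells. The groups did not overlap, yet they differed by only -0.08 ± 0.06 (adjusted p = 0.408 by limma), with an interval of 0.856-fold to 1.05-fold. Phlda3, a pleckstrin homology protein that restrains the kinase Akt, was measured at chr1:137665642-137665701. Its 81695 and 87125 units in SerpinB2-/- cells enclosed the 85699 and 83116 units in wild type cells. The change was -0.00 ± 0.07 (adjusted p = 0.996 by limma), and the interval of 0.890-fold to 1.12-fold leaves room only for a small one. Phlda3 and Btg2 lie on the chromosome of Serpinb2, with probes 28.2 and 26.6 Mb from that of Serpinb2, and neither passed.

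Among the genes of cell death, Bax did not pass and Eda2r passed only at probe A_66_P122860. The genes were not tested against each other. Bax, the pore-forming protein of the mitochondrial death pathway (chr7:52717122-52717181), gave 21513 and 24338 units in SerpinB2-/- cells, against 25905 and 21512 units in wild type cells. The groups overlapped, and the change was -0.04 ± 0.12 (adjusted p = 0.813 by limma, interval 0.788-fold to 1.19-fold).

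Eda2r, a death-domain-free receptor of the TNF receptor family that binds ectodysplasin A2, was lower in SerpinB2-/- cells. Its probe A_66_P122860, whose sequence is given above, had 54.3 and 59.05 units in SerpinB2-/- cells, against 75.4 and 77.8 units in wild type cells. Both SerpinB2-/- samples were below both wild type samples, and the fall of 0.44 ± 0.07 passed (log2, 1.35-fold lower, adjusted p = 0.0216 by limma). The other probe, A_51_P161323 (chrX:94531320-94531379, 2961 bases away), had 66.8 and 71.6 units in SerpinB2-/- cells and 115 and 87.8 units in wild type cells. Its groups did not overlap either. Its change was -0.54 ± 0.14 and did not pass (adjusted p = 0.0622 by limma), with the wild type arrays 0.39 apart on the log2 scale. These are low signals: the limit of what counted as well above background was 23.02 to 24.79 units. With normexp background correction, which adds an offset of 50 to every spot, the changes were -0.18 (adjusted p = 0.203 by limma) for A_66_P122860 and -0.27 (adjusted p = 0.161) for A_51_P161323, and the call was lost. Leaving out SerpinB2-/- replicate 1, wild type replicate 1 or wild type replicate 2 also ended the call (adjusted p = 0.0660, 0.0749 and 0.0830 by limma).

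Trp53inp1, a stress-induced protein that promotes p53 phosphorylation and autophagy, was lower at 1 of its 2 probes. Probe A_55_P1973906, whose sequence is given above, had 190 and 214 units in SerpinB2-/- cells, against 300.05 and 288 units in wild type cells. The groups were apart by more than their spread, and the fall of 0.54 ± 0.08 passed (log2, 1.46-fold lower, adjusted p = 0.0184 by limma). Probe A_51_P175580 (chr4:11101174-11101233), 8644 bases downstream on the same strand, had 4443 and 5045 units in SerpinB2-/- cells, against 5581 and 5443 units in wild type cells. This too was lower in both SerpinB2-/- samples, by -0.22 ± 0.08, but it did not pass (adjusted p = 0.133 by limma). The files list the same transcript, NM_021897, for both probes. Within each array the log2 signal of A_55_P1973906 minus that of A_51_P175580 was -4.55 and -4.56 in SerpinB2-/- cells, and -4.22 and -4.24 in wild type cells. These differences did not overlap between the genotypes, and their group means were -0.33 apart (SerpinB2-/- minus wild type). The exact two-sided permutation p was 0.333, the smallest that 2 samples against 2 allow. That test could therefore not decide whether the dim and the bright probe changed unequally. For Eda2r the same difference between probes overlapped between the genotypes (exact two-sided permutation p = 1). With normexp A_55_P1973906 fell by 0.43 and still passed (adjusted p = 0.0225 by limma). Leaving out wild type replicate 1 or 2 ended its call (adjusted p = 0.0751 and 0.0594 by limma).

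**Figure D2:**
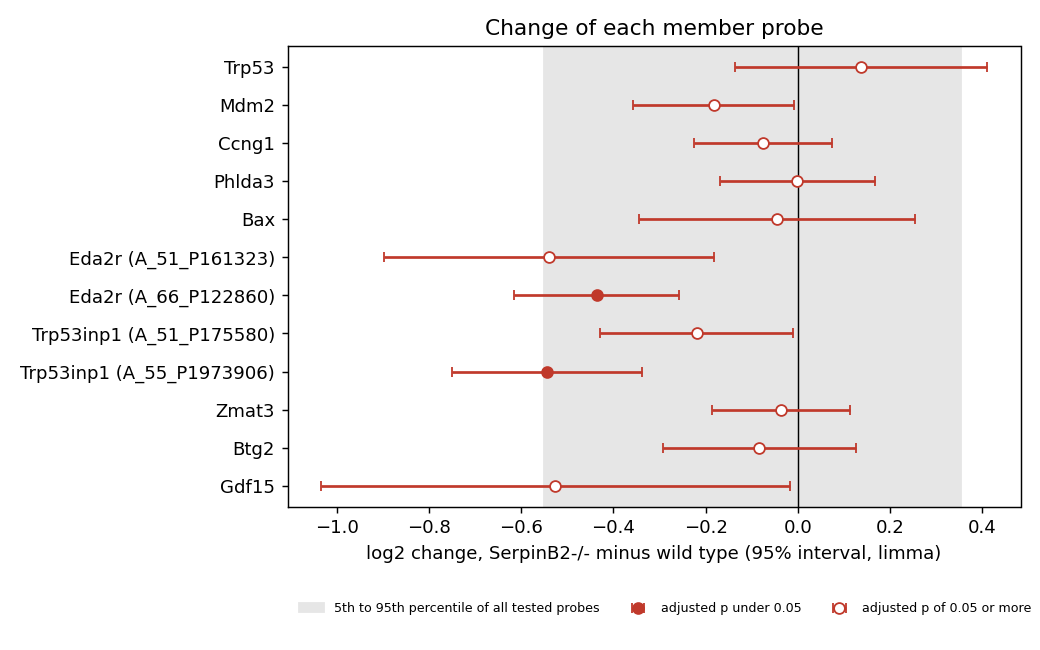
Log2 change, SerpinB2-/- minus wild type, of each of the 12 probes (points) with its 95% interval from limma (bars) and, shaded, the 5th to 95th percentile of all tested probes, -0.55 to 0.36. Filled points passed at an adjusted p under 0.05; the 2 filled points are Eda2r A_66_P122860 at -0.44 and Trp53inp1 A_55_P1973906 at -0.54.

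The genes of RNA decay and growth arrest showed no difference that passed. Zmat3, a zinc finger protein that binds messenger RNA and alters its splicing and stability, was measured at chr3:32233831-32233890. It had 11445 and 11789 units in SerpinB2-/- cells, against 11950 and 11874 units in wild type cells. The change was -0.04 ± 0.06 (adjusted p = 0.692 by limma), with an interval of 0.879-fold to 1.08-fold. Btg2, an antiproliferative protein that recruits the deadenylase complex to messenger RNA (chr1:135972094-135972153), had 5675 and 5641 units in SerpinB2-/- cells, against 5620 and 6393 units in wild type cells. The SerpinB2-/- values lay between the wild type values. Btg2 changed by -0.08 ± 0.08 (adjusted p = 0.510 by limma, interval 0.816-fold to 1.09-fold).

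Gdf15, a secreted member of the TGF-beta superfamily, was the most variable of the 10 genes within a genotype. Its probe at chr8:73153293-73153352 had 18706 and 27475 units in SerpinB2-/- cells, against 35325 and 30158 units in wild type cells. Both SerpinB2-/- samples were lower than both wild type samples, but they were 0.55 apart from each other on the log2 scale. The change of -0.53 ± 0.20 did not pass (adjusted p = 0.135 by limma), with an interval of 0.488-fold to 0.988-fold. It was -0.25 without SerpinB2-/- replicate 1 (adjusted p = 0.266 by limma) and -0.80 without SerpinB2-/- replicate 2, where it passed (adjusted p = 0.0262), so the size and the call rested on which SerpinB2-/- sample was kept. On each array the spread between the spots of this probe was small, with an SD of 0.01 to 0.05 on the log2 scale.

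In direction the 12 probes leaned downward. In 8 of them both SerpinB2-/- samples were below both wild type samples, and in 0 of them were both above, while 4 overlapped. The 8 include both probes of Eda2r and both of Trp53inp1, and probes of the same gene are not independent. Among all tested probes 64.7% did not overlap, 33.7% with SerpinB2-/- below and 31.0% above. Scaling each array by its median moved the changes of all probes up alike, with a median of 0.13. Then 5 of the 12 lay below, 4 above and 3 overlapped, against 16.6% below and 55.2% above among all probes. Under that scaling the 2 called probes still fell, and 6 of the 12 changes were positive. The changes of Mdm2, Trp53inp1, Eda2r and Gdf15 were negative in all alternatives run. That of Trp53 was positive in all of them, at 0.0139 to 0.2726, and passed in none.

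**Figure D3:**
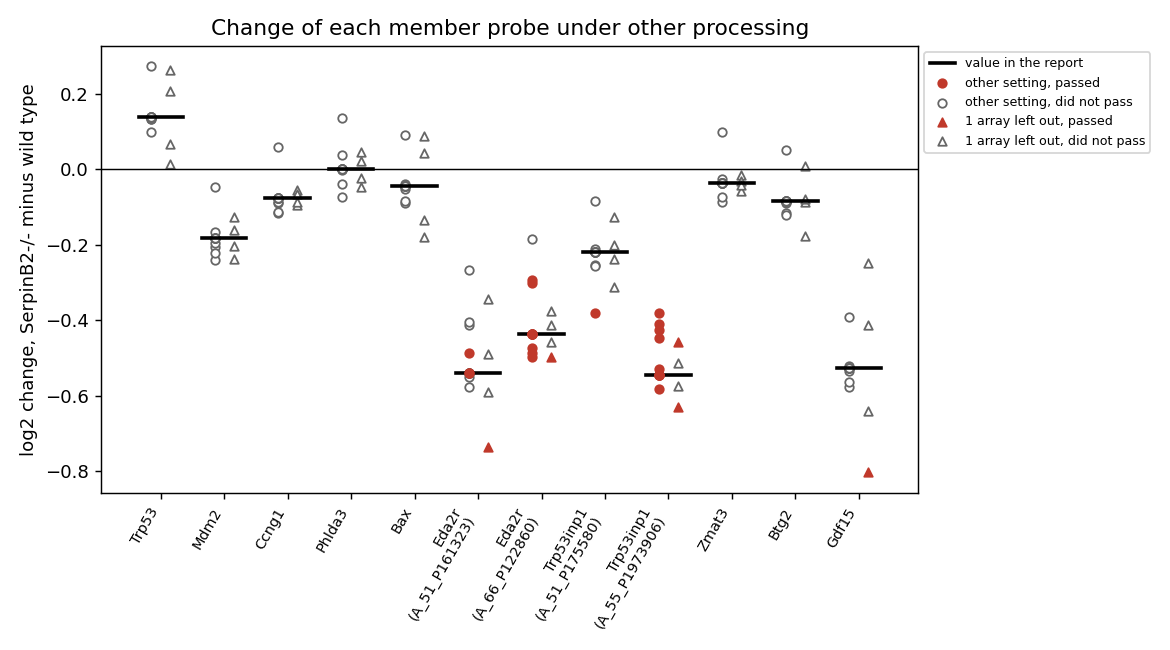
Log2 change, SerpinB2-/- minus wild type, of each of the 12 probes as reported (black line), under other processing (circles) and with 1 array left out (triangles). Filled symbols passed at an adjusted p under 0.05. Eda2r, Trp53inp1, Mdm2 and Gdf15 stay below 0 throughout, and Trp53 stays above 0 throughout. No symbol of Trp53, Mdm2, Ccng1, Phlda3, Bax, Zmat3 or Btg2 is filled.

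A wider list of 51 regulators and targets of p53, of which 49 were tested at their brightest probe, gave 6 lower genes and 1 higher gene (14.3%). Of all genes tested in this way 15.8% passed, 9.75% lower and 6.04% higher. The list's median change was -0.07, against 0.01 over all genes. With median scaling, which moves all genes alike, 12 of the 49 were higher (24.5%) and 4 lower (8.16%). Among all tested probes 21.6% were higher and 6.71% lower with that scaling. These shares count every tested probe and not the brightest of each gene, so the comparison is not matched.

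Of 16 tested regulators of p53, 1 fell, 1 rose and 14 did not pass. Cdkn2a, a locus whose Arf product binds Mdm2, had 24155 and 27288 units in SerpinB2-/- cells, against 38477 and 34007 units in wild type cells (-0.49 ± 0.10, adjusted p = 0.0339 by limma). Its groups did not overlap, and a further probe gave -0.52 ± 0.09 (adjusted p = 0.0288 by limma). The call was lost in 4 of 16 alternatives. Hipk2, a kinase that phosphorylates p53, had 7841 and 8396 units in SerpinB2-/- cells and 6781 and 6523 units in wild type cells (0.29 ± 0.07, adjusted p = 0.0493 by limma). Its call was lost in 12 of 16 alternatives, and a further probe gave -0.01 ± 0.06.

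Of 8 tested genes of growth arrest, 1 fell and 7 did not pass. Sfn, stratifin, an adaptor protein of epithelial cells, had 1647 and 1807 units in SerpinB2-/- cells, against 2967 and 2823 units in wild type cells. The groups were far apart, and Sfn fell by 0.75 ± 0.07 (adjusted p = 0.00889 by limma). Cdkn1a, the inhibitor of cyclin-dependent kinases through which p53 arrests the cycle, had 22858 and 20960 units in SerpinB2-/- cells and 24014 and 24649 units in wild type cells at its brightest probe. That change was -0.15 ± 0.07 and did not pass (adjusted p = 0.195 by limma). Further probes of Cdkn1a fell, with changes of -0.46 ± 0.08 (493 and 466 units in SerpinB2-/- cells, against 701 and 624 units in wild type cells, adjusted p = 0.0267 by limma) and -1.01 ± 0.15 (30.8 and 23.01 units against 55.7 and 51.5 units, adjusted p = 0.0185). Averaged over its 3 probes, the change of Cdkn1a was -0.54 and did pass (adjusted p = 0.0251 by limma). The last of these probes was well above background on only 1 of the 2 SerpinB2-/- arrays, so its change and the average that includes it are uncertain.

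Of 11 tested genes of apoptosis, 2 fell and 9 did not pass. Perp, a membrane protein of desmosomes and a p53 effector of cell death, had 15168 and 16705 units in SerpinB2-/- cells, against 27722 and 25673 units in wild type cells. It fell by 0.75 ± 0.08 (adjusted p = 0.0101 by limma), with a wide gap between the groups. Trp53i11 had 7396 and 7363 units in SerpinB2-/- cells and 10063 and 9799 units in wild type cells, a fall of 0.43 ± 0.06 (adjusted p = 0.0154 by limma). The call of Trp53i11 was lost in 4 of 16 alternatives. A further, dimmer probe of Trp53i11 gave -0.71 ± 0.07 (adjusted p = 0.00858 by limma). Sfn and Perp are also genes of epithelial cells. Of 7 epithelial markers 5 fell in the same samples. The summed signal of all 7 was 458796 and 480723 units in SerpinB2-/- cells, against 584561 and 586547 units in wild type cells. The largest part of that sum was Krt18, which did not pass (adjusted p = 0.0966 by limma). The part of these markers in the values of Sfn and Perp was not tested. The cell composition of the samples was not measured, so fewer cells of a type and less RNA per cell cannot be told apart.

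Of 14 tested genes of metabolism and DNA repair, 2 fell and 12 did not pass. Sesn2, a sestrin that restrains growth signalling through mTORC1 under stress, had 5591 and 5418 units in SerpinB2-/- cells, against 7249 and 6934 units in wild type cells (-0.37 ± 0.06, adjusted p = 0.0244 by limma). Sulf2, a heparan sulphate sulphatase, had 5921 and 5783 units in SerpinB2-/- cells and 7109 and 7302 units in wild type cells (-0.30 ± 0.06, adjusted p = 0.0336 by limma). The groups of both genes did not overlap. With median scaling neither passed (-0.23 and -0.17, adjusted p = 0.0636 and 0.115 by limma), and left-out arrays ended both calls.

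**Figure D4:**
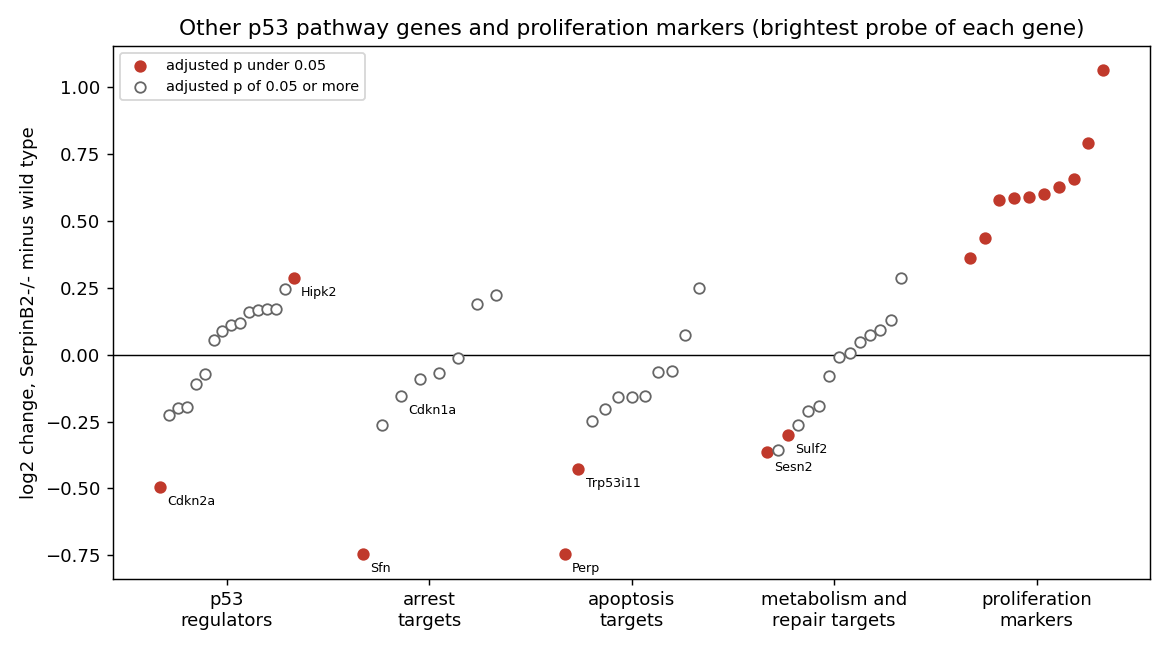
Log2 change, SerpinB2-/- minus wild type, of each tested gene at its brightest probe in the 4 lists of other p53 pathway genes and in the list of proliferation markers. Filled points passed at an adjusted p under 0.05; the 10 proliferation markers are all filled and lie between 0.36 and 1.06, while the p53 lists straddle 0.

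Markers of the cell cycle and of other cell types moved in the same samples as the p53 targets. All 10 proliferation markers were higher in SerpinB2-/- cells, with a median change of 0.60 and a summed signal of 73145 and 67940 units, against 46455 and 48649 units in wild type cells. Of 10 leukocyte markers 6 fell, with summed signals of 18975 and 18362 units in SerpinB2-/- cells and 23154 and 21379 units in wild type cells. Of 8 tested endothelial markers 7 fell (5892 and 7168 units, against 9518 and 9342 units), and Tek had no probe that could be tested. Of 8 tested fibroblast and pericyte markers 2 rose (175597 and 194383 units, against 156917 and 134133 units), and Lum could not be tested. Of 9 tested proximal tubule markers 2 rose and 1 fell, and of 5 tested markers of later segments 3 fell. The leukocyte, endothelial and fibroblast sums cover all tested markers of their lists. The largest part of each came from markers that did not pass, namely Itgam, Kdr, and Col1a1 with Col1a2. The part of these markers in the values of the p53 target genes was not tested.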

How the data were processed

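Total RNA (150 ng per sample) from 4 samples was labelled with Cy3 and hybridised to 1 one-colour Agilent array each. Per the file headers and the submitters' processing notes, the authors made the deposited intensity values with Agilent Feature Extraction 10.7.3.1, which subtracted background, removed spatial trends and set surrogates for dim spots; positions are in mm9. A table of the authors' intensity values, scaled to a common 75th percentile by a method not given in the sources used here, was an alternative.

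Control spots (17263) and outlier spots were left out, the log2 signals of the 4 spots of a probe were averaged, and the 75th percentile of each array was subtracted. For printing, signals were returned to the mean 75th percentile of the arrays. A probe was tested if over 50% of its spots exceeded background clearly (the scanner software's well-above-background mark) on both arrays of at least 1 genotype. Each probe was compared with limma 3.58.1 in R 4.3.3 (lmFit, eBayes without trend; Benjamini-Hochberg adjustment over 24174 probes). No spot was saturated, and precision is limited by having 4 arrays. The fit was tested on simulated data.

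Named were Serpinb2, every probe of the 10 genes, up to 4 called genes with the largest change in each of 4 further p53 lists, and Cdkn1a. All 115 genes of the further lists and marker lists were on the array. The members and lists were chosen with earlier results of these data known. Alternatives were normexp background correction, 3 other scalings, the authors' table, 2 other filters, outlier spots kept, a trended fit, a replicate block, each array left out, and the brightest or the mean probe of each gene.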

Additional observations from a re-analysis of the deposited data

How the results depend on the processing

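Without a filter on dim probes, 4 of all 39429 probes passed, and 0 of the 12 p53 probes and 0 of the 49 other p53 pathway genes (3 and 11 at an unadjusted p under 0.05 by limma, against 7714 or 19.6% of all); the cause was not tested. With median scaling 6839 probes passed, 5217 higher and 1622 lower, against 1400 higher and 2458 lower as reported, and 16 of the 49 pathway genes. With normexp 1 of the 12 probes passed, against 12.5% of all, and with only the brightest probe of each gene 0 of 10, against 15.7% of all (4, against 34.2% of all, at an unadjusted p under 0.05 by limma), because neither called probe is the brightest of its gene. Leaving out 1 array gave 1218 to 2245 probes in all, 0 to 3 of the 12 and 2 to 4 of the 49. With the replicate block, 2835 probes passed in all, 3 of the 12 and 5 of the 49, with Eda2r A_51_P161323 added (adjusted p = 0.0488 by limma); the deviations of same-numbered arrays correlated by 0.213, and the labels do not say that the numbers pair the samples.

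Small changes that did not pass turned positive with median scaling: Ccng1 0.0595, Phlda3 0.134, Bax 0.0898, Zmat3 0.0984 and Btg2 0.0514. Phlda3 was at 0.0374 with normexp and at 0.001 with outlier spots kept. With 1 array left out Phlda3 ranged from -0.047 to 0.0459, Bax from -0.179 to 0.0891 and Btg2 from -0.176 to 0.0095.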

Other observations

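Looking at every tested probe of the other p53 pathway genes in place of the brightest, 11 of 68 were lower (16.2%) and 1 higher (1.47%). In all 17.6% passed, near the 16.0% of all tested probes. By direction the shares were less alike, as 10.2% of all tested probes were lower and 5.79% higher in SerpinB2-/- cells. Cdkn1a, Cdkn2a and Trp53i11 each gave more than 1 of the 11 lower probes, and probes of the same gene are not independent. At the brightest probe of each gene 12.2% of the list was lower, against 9.75% of all genes. Of 17 genes with more than 1 tested probe, 3 held both a called and an uncalled probe: Cdkn1a and Hipk2, given above, and Mdm4, chosen here after its values were seen. Mdm4, a relative of Mdm2 that inhibits p53, had 175 and 164 units in SerpinB2-/- cells, against 235 and 213 units in wild type cells, at probe A_55_P2081388 (-0.40 ± 0.08, adjusted p = 0.0321 by limma). Its other probe, A_52_P485905, had 185 and 182 units in SerpinB2-/- cells and 212 and 218 units in wild type cells (-0.23 ± 0.06, adjusted p = 0.0615 by limma). No gene had called probes of both directions.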
